A study of Saccharomyces cerevisiae with 18 samples.

Results

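The glucose response of gene expression was compared between 2 yeast strains that carry different versions of the Snf1 protein kinase, called Alpha1 and T210A. The quantity described is the response difference of a gene, which is the change from high to low glucose in Alpha1 minus the same change in T210A, on the log2 scale. It rests on 12 of the 18 arrays of the study, 3 in each of 4 groups, and was computed for 5449 genes with 1 probe set each. A positive value means that the change was more positive in Alpha1, and a value of 1 stands for a factor of 2 between the changes of the 2 strains.

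Every strain was a snf1 deletion mutant that carried 1 plasmid. The Alpha1 plasmid (HA-Alpha1) encodes a chimera in which the kinase part comes from the Alpha1 catalytic subunit of AMP-activated protein kinase (AMPK) and the regulatory part from yeast Snf1. T210A (HA-T210A) is full-length Snf1 in which the threonine that must be phosphorylated for activity is replaced by alanine, so it stands for a kinase that cannot be switched on. The remaining 6 arrays are of the same deletion with a normal HA-Snf1 and show where the ordinary response lay. They also enter the estimate of the spread of each gene, and so every SE, p-value and call. Cultures were aerobic, in 1-litre bioreactors at 30 °C and pH 5.0 on 40 g/L glucose, and were sampled at 15 to 20 g/L (high) or at 5 g/L (low) residual glucose. The replicates are named biological replicates, but nothing says whether they came from separate transformants or whether low and high samples came from the same culture, so p-values measure only the spread between these arrays. A plasmid can vary in copy number between strains, which limits these strains as models of a single altered protein.

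Snf1 is the yeast member of the AMPK family. When glucose runs short it is phosphorylated on its activation loop, inactivates the repressor Mig1 and turns on genes for sucrose, maltose and other carbon sources, for respiration and for gluconeogenesis. It also phosphorylates acetyl-CoA carboxylase and is linked to inositol synthesis, storage carbohydrate and the amino acid starvation response through Gcn4.

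The values are log2 signals per probe set from the deposited table, from 2.25 to 14.3. Within a group, arrays correlated at 0.992 or more across genes in 5 of the 6 groups, and the 3 arrays of Alpha1 at low glucose at 0.978 to 0.984. The median within-group SD of a gene was 0.22 there and 0.10 to 0.13 in the other groups. Genes of chromosome VIII stood apart between the strains: their median signal in Alpha1 minus that in T210A was -0.74 at high and -0.61 at low glucose, against 0.00 for all genes at both levels. Their mean signal was 7.41 to 7.52 on the T210A arrays, 6.69 to 6.93 on the Alpha1 arrays and 6.66 to 6.83 on those of normal Snf1. T210A was therefore the strain that differed. The gap between Alpha1 and T210A was similar at both glucose levels, and the median response difference on chromosome VIII was 0.04, with 32 genes higher and 28 lower of 261. These are 12.3% and 10.7%, against 10.9% and 9.41% of all genes. With the genes of chromosome VIII left out of the fit, 1042 of 5188 genes were called, 560 higher and 482 lower. No named gene tested in that fit lost its call. Leaving these genes out does not change the signals of the others, so the fit cannot show an effect on them. The part of chromosome VIII and of the spread of Alpha1 at low glucose in the results was not tested.

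The kinase transcript itself differed. SNF1 (YDR477W) read 12.32, 12.46 and 12.30 on the Alpha1 arrays at high glucose and 12.97, 13.17 and 12.69 at low glucose. In T210A it read 7.05, 7.25 and 6.93 at high and 9.26, 9.52 and 9.16 at low glucose. All Alpha1 arrays therefore lay above all T210A arrays, by 5.29 at high and 3.63 at low glucose, and the response was smaller in Alpha1 (response difference -1.65 ± 0.19, limma adjusted p = 4.26e-05). With normal Snf1 the gene read 7.14, 7.31 and 7.06 at high and 8.44, 8.74 and 8.53 at low glucose. Those arrays were nearer T210A at both levels, so Alpha1 was the strain that stood apart. The probe set may read plasmid transcripts, so it is no check of the deletion, and the part of kinase transcript level in the other results was not tested. URA3 (YEL021W), a pyrimidine synthesis gene often used as a plasmid marker, also read higher in Alpha1, at 12.44, 12.35 and 12.35 against 10.45, 10.36 and 10.59 at high glucose, and it fell in Alpha1 but rose in T210A (response difference -1.07 ± 0.10, limma adjusted p = 1.04e-05). With normal Snf1, URA3 read 10.75, 10.79 and 10.89 at high and 10.09, 10.08 and 9.99 at low glucose, levels nearer T210A than Alpha1. Which marker the plasmids carry is not given in the sources used here.

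Of the 5449 genes, 1106 responded differently in the 2 strains at a Benjamini-Hochberg adjusted p under 0.05 in limma's moderated test, which is 20.3% of the genes tested. The response was higher in Alpha1 for 593 genes (10.9%) and lower for 513 (9.41%). The median size of a called difference was 0.72, and 298 called genes differed by at least 1 on the log2 scale, 107 of them higher and 191 lower. Large differences were rare: 16 called genes were higher and 31 lower by at least 4-fold, and 4 were higher and 6 lower by at least 8-fold.

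Both strains responded widely to glucose. In Alpha1 1868 genes (34.3%) rose and 1593 (29.2%) fell from high to low glucose, and in T210A 2055 (37.7%) rose and 1786 (32.8%) fell. For 534 of the 1106 called genes the change was called in the same direction in both strains and differed in size. Among these, 313 rose in both, 152 of them more in Alpha1 and 161 more in T210A, and 221 fell in both, 69 of them more in Alpha1 and 152 more in T210A. A further 115 genes were called in opposite directions, 58 rising in Alpha1 and falling in T210A and 57 the reverse. The change was called only in Alpha1 for 145 genes, only in T210A for 311 and in neither for 1.

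**Figure D1:**
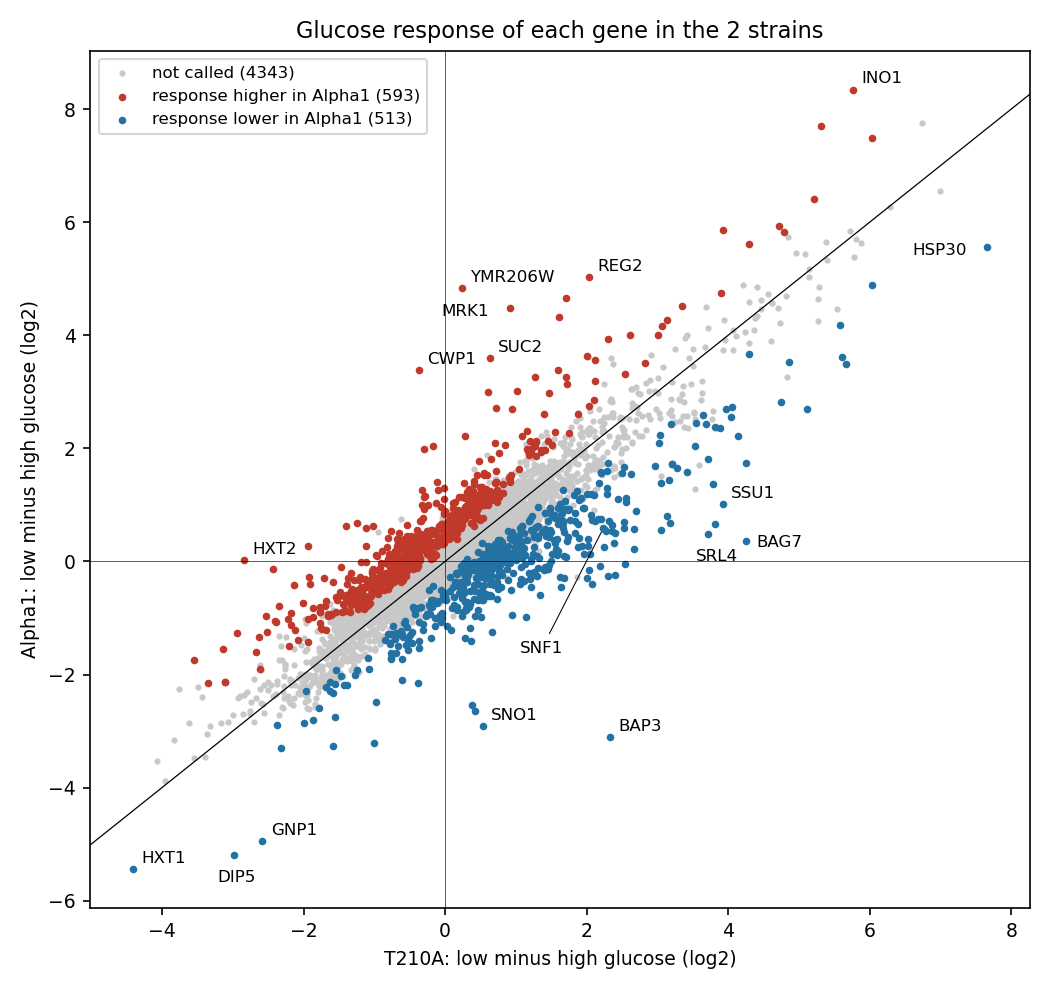
Each point is 1 of 5449 genes, placed by its mean change from high to low glucose in T210A (horizontal axis, log2) and in Alpha1 (vertical axis, log2), with 3 arrays in each group. The diagonal marks equal responses, and the 593 genes called higher in Alpha1 (red) and 513 called lower (blue) lie on its 2 sides, with BAP3 farthest below it and YMR206W farthest above it.

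Genes under glucose repression gave some of the largest differences. SUC2 (YIL162W) encodes invertase, which splits sucrose outside the cell and is the classical target of Mig1. On the Alpha1 arrays it read 6.19, 6.57 and 6.30 at high glucose and 9.73, 9.05 and 11.05 at low glucose. On the T210A arrays it read 6.13, 6.45 and 5.87 at high and 6.68, 7.12 and 6.54 at low glucose. The strains overlapped at high glucose and separated at low glucose, where replicate 3 of Alpha1 was far above replicates 1 and 2. The response was 3.59 ± 0.37 in Alpha1, a 12-fold rise, and 0.63 ± 0.37 in T210A (not called, adjusted p = 0.14), and the difference was 2.96 ± 0.52 (limma adjusted p = 0.00127). With normal Snf1 the rise was 5.70, so Alpha1 lay between the other strains.

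REG2 (YBR050C), a regulatory subunit of the Glc7 phosphatase that counteracts Snf1, showed the same order with less scatter. Its signal went from 2.98, 3.39 and 3.53 to 8.07, 8.15 and 8.76 in Alpha1 and from 3.18, 3.38 and 3.53 to 5.24, 5.38 and 5.55 in T210A. Both strains rose without overlap, 32.7-fold in Alpha1 and 4.08-fold in T210A, and differed by 3.0 ± 0.24 (limma adjusted p = 2.52e-06). MIG1 (YGL035C), the repressor gene, rose in Alpha1 from 6.01, 6.37 and 6.25 to 7.46, 7.41 and 7.55 and fell slightly in T210A, from 5.97, 6.28 and 5.88 to 5.60, 5.79 and 5.75. That is a difference of 1.6 ± 0.19 (limma adjusted p = 5.23e-05), and normal Snf1 gave a rise of 1.82. MTH1, a co-repressor of the hexose transporter genes, rose from near the floor of the arrays in both strains, to 8.57, 8.50 and 9.04 in Alpha1 and to 7.26, 7.54 and 7.26 in T210A (difference 1.32 ± 0.19, limma adjusted p = 0.00028).

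Of the 9 measured glucose repressor genes 3 were called higher and 1 lower, or 33.3% and 11.1% against 10.9% and 9.41% of all genes. Besides MIG1 these were NRG2 (1.38), a zinc finger repressor, HXK2 (0.97), the hexokinase that takes part in repression, and, lower, NRG1 (-0.46), the paralog of NRG2, whose call was lost with arrays centred on their medians (-0.44, adjusted p = 0.0598). HXK2 rose by 0.39 in Alpha1 and fell by 0.57 in T210A. Of 14 activators of glucose-repressed genes 3 were higher and 2 lower, or 21.4% and 14.3% against 10.9% and 9.41% of all genes. They include CAT8 (0.82), the activator of gluconeogenic genes, and SIP4 (-0.68), its relative, and both started near the floor and lost the call under several settings, among them the omission of T210A_low replicate 1 (0.78, adjusted p = 0.0598, and -0.61, adjusted p = 0.0859). The higher count was 1 without that array, T210A_high replicate 1 or T210A_high replicate 3. Among 14 genes of the Snf1 complex and its regulators 4 were higher, REG2, MTH1, SHP1 (0.69) and SNF4 (0.50), and 1 lower, SNF1. These are shares of 28.6% and 7.14%, against the same 10.9% and 9.41%. SNF4, the activating subunit of the kinase, was not called with the 12 arrays alone (0.50, adjusted p = 0.0651) or with any of 7 arrays left out.

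The hexose transporters moved in different ways. HXT2 (YMR011W), a transporter of high affinity, read 5.49, 5.85 and 5.85 at high and 6.45, 4.76 and 6.02 at low glucose in Alpha1, and 6.06, 6.30 and 6.07 at high and 3.26, 3.20 and 3.45 at low glucose in T210A. The Alpha1 groups overlapped, whereas T210A fell 7.15-fold without overlap, for a difference of 2.85 ± 0.43 (limma adjusted p = 0.000445). The normal kinase gave a rise of 2.42, a direction that neither strain showed as a called change. HXT7, another high-affinity transporter, rose by 5.93 in Alpha1 and 4.72 in T210A and differed by 1.21, but its close copy HXT6 can share its probe sequence, and the call was lost in the 12-array fit (adjusted p = 0.109) and without any 1 of 11 arrays. HXT1, the low-affinity transporter of growth on ample glucose, fell by 5.44 in Alpha1 and by 4.41 in T210A (difference -1.03 ± 0.30, limma adjusted p = 0.0286). It lies on chromosome VIII, and its call was lost in the 12-array fit (adjusted p = 0.0924) and without any 1 of 7 arrays. Over 18 transporters and sensors 5 were higher and 2 lower (27.8% and 11.1%, against 10.9% and 9.41% of all genes), with a median difference of 0.15. The count of higher members was 3 without Alpha1_high replicate 2 or T210A_low replicate 2, and that of lower members 0 without Alpha1_high replicate 2, T210A_high replicate 1 or T210A_low replicate 3. HXT9 (1.44) has 2 probe sets and near-identical relatives, and the mean of its probe sets gave 0.78.

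HXK1, the hexokinase induced when glucose falls, rose 179-fold in Alpha1 and 65.3-fold in T210A. The difference was 1.45 ± 0.38 (limma adjusted p = 0.0147) and was not called with array weights (1.11, adjusted p = 0.0612). Across 20 glycolytic genes 3 were higher and 2 lower (15% and 10%, against 10.9% and 9.41% of all genes), with a median of -0.03. In the invertase and maltose list SUC2 was the 1 called gene of 9, and in the galactose list GAL3, the galactose sensor, was the 1 of 7 (1.08), both near the background share, although 3 genes of the invertase and maltose list were higher without Alpha1_low replicate 2.

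**Figure D2:**
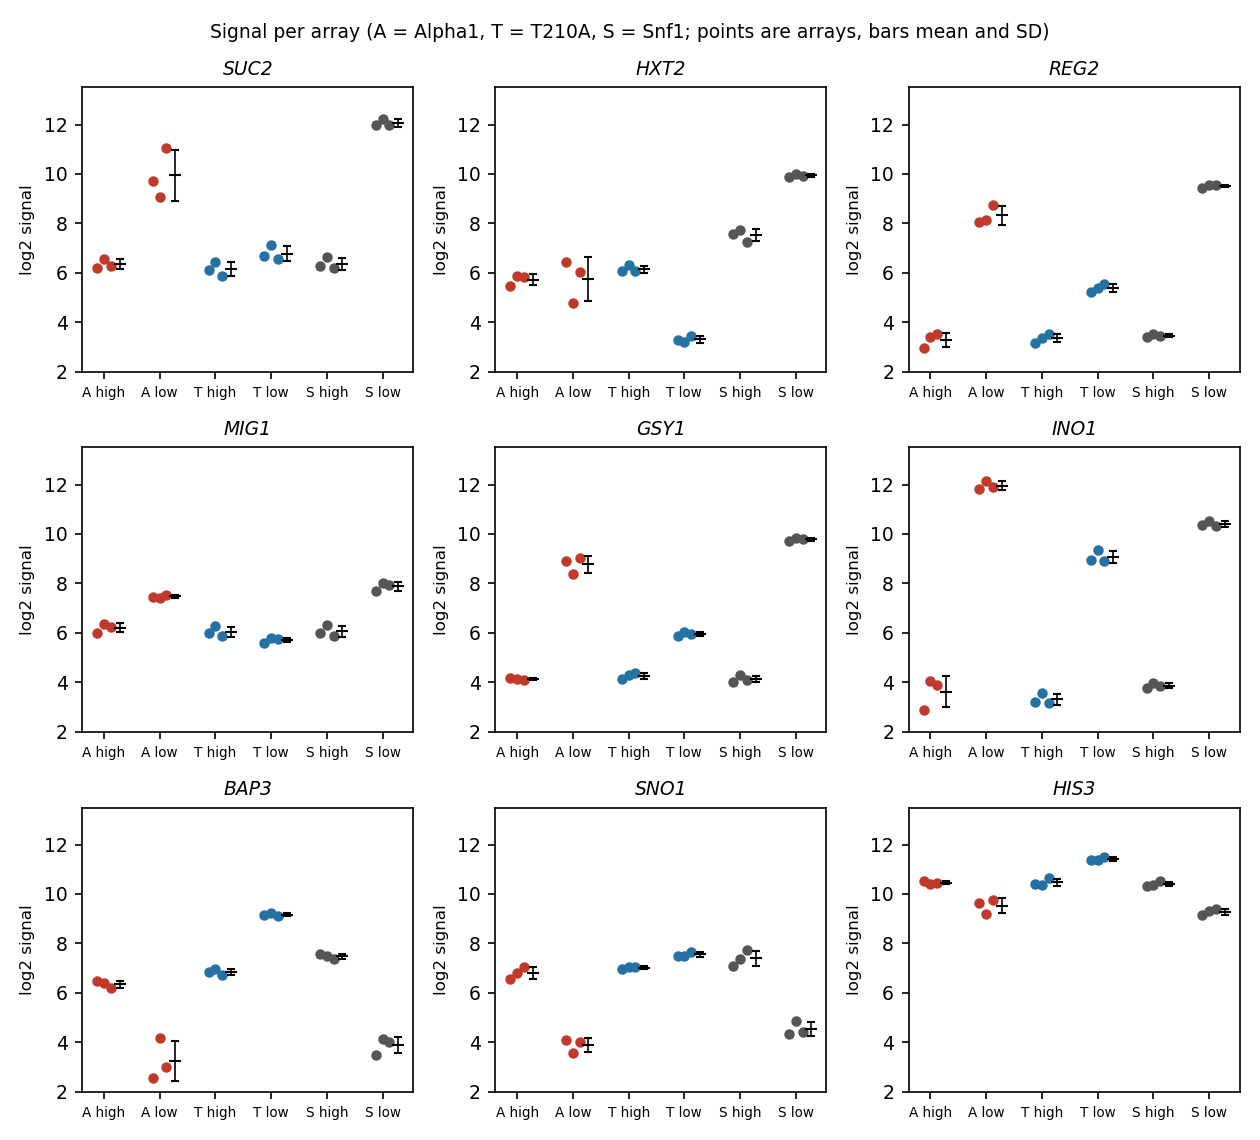
Log2 signal of 9 genes on every array, for Alpha1 (A, red), T210A (T, blue) and normal Snf1 (S, grey) at high and low glucose; points are arrays and bars give the mean and SD of 3 arrays. SUC2, REG2, MIG1, GSY1 and INO1 are higher in Alpha1 than in T210A at low glucose on every array, HXT2 overlaps between glucose levels in Alpha1 and drops in T210A, and BAP3, SNO1 and HIS3 are lower in Alpha1.

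Genes of storage carbohydrate rose in both strains and some rose further in Alpha1. GSY1 (YFR015C), 1 of the genes for glycogen synthase, went from 4.17, 4.13 and 4.08 to 8.89, 8.39 and 9.05 in Alpha1 and from 4.12, 4.29 and 4.36 to 5.88, 6.05 and 5.96 in T210A. No array of 1 strain overlapped the other at low glucose, and the difference was 2.94 ± 0.19 (limma adjusted p = 4.55e-07). All 23 measured glycogen and trehalose genes rose in Alpha1 and 22 in T210A. Their median response was 2.99 in Alpha1, 2.22 in T210A and 3.69 with normal Snf1, and 5 were called higher in Alpha1, among them PGM2 (1.19), the major phosphoglucomutase, and GAC1 (1.52), a phosphatase subunit that activates glycogen synthase. PCL10 (-0.68), a cyclin that directs the inhibitory phosphorylation of glycogen synthase, was the 1 lower. The shares called were 21.7% higher and 4.35% lower, against 10.9% and 9.41% of all genes. The number of higher members fell to 2 without Alpha1_high replicate 1, T210A_high replicate 2 or T210A_low replicate 1, to 3 without Alpha1_high replicate 3 or T210A_low replicate 2, and rose to 8 without Alpha1_low replicate 2. GAC1 started near the floor, and with Alpha1_low replicate 3 left out its difference was 0.98.

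MRK1 (YDL079C), a protein kinase of the glycogen synthase kinase 3 family, was near the floor at high glucose in both strains, at 2.69 to 2.74 on all 6 arrays. At low glucose it read 6.91, 6.22 and 8.44 in Alpha1 and 3.29, 3.88 and 3.71 in T210A (difference 3.56 ± 0.53, limma adjusted p = 0.0004). YMR206W, an uncharacterised gene, gave the largest positive difference: it was at 2.26 on every array at high glucose and read 7.11, 6.02 and 8.14 at low glucose in Alpha1 but 2.33, 2.38 and 2.76 in T210A (4.60 ± 0.49, limma adjusted p = 2.87e-05). RSB1 (2.71), which encodes a transporter of sphingoid bases, likewise started near the floor. Folds taken from such levels are uncertain. In all 3 genes replicate 3 of Alpha1 at low glucose was the highest array and replicate 2 the lowest.

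Genes for other carbon sources did not move as a block. Among 16 genes for lactate, acetate, ethanol and glycerol use 5 were higher and 1 lower, with a median of 0.03. These are shares of 31.25% and 6.25%, against 10.9% and 9.41% of all genes. The higher ones included GUT2 (1.44), mitochondrial glycerol 3-phosphate dehydrogenase, and the aldehyde dehydrogenases ALD4 (1.63) and ALD6 (1.58). ALD4 rose by 3.63 in Alpha1 and 2.0 in T210A, whereas ALD6, which supplies cytosolic acetate, fell by 1.56 and 3.14 and was not called in the 12-array fit (adjusted p = 0.0599). JEN1, the lactate permease gene, read 5.38, 5.13 and 7.24 in Alpha1 and 5.64, 5.38 and 5.44 in T210A at low glucose. The strains overlapped and the difference was not called (0.47 ± 0.54, limma adjusted p = 0.611), while normal Snf1 gave a response of 6.40. CYB2, the lactate dehydrogenase gene, responded by 5.63 and 5.87 (difference -0.24, adjusted p = 0.279).

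In the gluconeogenesis and glyoxylate list 6 of 19 genes were lower and 1 higher, with a median of -0.32. These are shares of 31.6% and 5.26%, against 9.41% lower and 10.9% higher among all genes. CIT2 (YCR005C), peroxisomal citrate synthase, fell in Alpha1 from 11.52, 11.63 and 11.77 to 10.19, 10.54 and 9.98 and rose in T210A from 11.59, 11.66 and 11.50 to 11.82, 12.01 and 12.01. This is a difference of -1.76 ± 0.17 (limma adjusted p = 1.32e-05), and normal Snf1 gave -1.72. MAE1 (-1.68), the malic enzyme gene, fell in both strains and further in Alpha1. The rate-limiting enzymes were not called: PCK1 (phosphoenolpyruvate carboxykinase) had a difference of -0.39 (adjusted p = 0.277), and FBP1 (fructose-1,6-bisphosphatase) stayed near the floor at both glucose levels, as did the alcohol dehydrogenase gene ADH2.

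Genes of fatty acid oxidation had lower responses in Alpha1. Of 22 measured, 8 were lower and 0 higher, against background shares of 9.41% and 10.9%, and the median response was 0.51 in Alpha1 and 1.21 in T210A, with 0.78 for normal Snf1. YAT2 (YER024W), a carnitine acetyltransferase, fell in Alpha1 from 5.34, 5.17 and 5.29 to 4.58, 4.82 and 5.21, with overlap, and rose in T210A from 5.02, 5.21 and 4.92 to 7.14, 7.15 and 7.08. The difference was -2.47 ± 0.18 (limma adjusted p = 1.43e-06). PEX21 (-1.49), a peroxisomal import factor, fell in both strains, and PIP2 (-1.31), an activator of these genes, was not called in the 12-array fit (adjusted p = 0.0703). The count of lower members was 5 when any 1 of Alpha1_high replicate 3, T210A_high replicate 1 or a T210A array at low glucose was left out. The mean over the list on Alpha1 replicate 1 at low glucose, 5.54, was below the 6.15 and 6.12 of the other replicates.

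Inositol and phospholipid synthesis genes had higher responses in Alpha1. INO1 (YJL153C), the enzyme that makes inositol phosphate from glucose 6-phosphate, went from 2.89, 4.04 and 3.90 to 11.82, 12.15 and 11.89 in Alpha1 and from 3.20, 3.55 and 3.17 to 8.95, 9.35 and 8.91 in T210A. Every Alpha1 array exceeded every T210A array at low glucose, by 2.88 on average, and the response difference was 2.58 ± 0.33 (limma adjusted p = 0.000137). The response with normal Snf1 was 6.54, against 8.34 in Alpha1, a comparison not tested here. Of 23 genes in the list 10 were called higher, against a background of 10.9%, and 2 lower, with a median of 0.48. PSD1 (1.51), phosphatidylserine decarboxylase, rose by 1.40 in Alpha1, and its response of -0.11 in T210A did not pass the test. CDS1 (1.18), CDP-diacylglycerol synthase, rose by 0.65 in Alpha1 and fell by 0.53 in T210A. The others higher were CHO1, ITR1, CKI1, EPT1, CPT1, EKI1 and OPI1, of which OPI1 encodes the repressor of these genes. EPT1 (0.93), OPI1 (0.54) and, of the lower ones, INM1 (-1.67), inositol monophosphatase, lie on chromosome VIII, whose signal differed between the strains. At high glucose the mean signals in Alpha1 and T210A were 8.22 and 8.71 for EPT1, 8.27 and 8.86 for OPI1, and 7.41 and 8.52 for INM1, each higher in T210A. With normal Snf1 the high-glucose arrays read 7.44, 7.46 and 7.44 for INM1, level with Alpha1.

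In fatty acid synthesis 2 of 11 genes were higher and 1 lower (18.2% and 9.09%, against 10.9% and 9.41% of all genes). ACC1 (YNR016C), acetyl-CoA carboxylase, the enzyme whose activity Snf1 restrains, went from 11.61, 11.63 and 11.71 to 12.17, 12.20 and 12.08 in Alpha1 and from 11.60, 11.68 and 11.68 to 11.54, 11.74 and 11.72 in T210A. It rose in Alpha1, the T210A groups overlapped, and the difference was 0.49 ± 0.08 (limma adjusted p = 0.000955). FAS1 (0.72), a fatty acid synthase subunit, rose by 0.25 and fell by 0.47, and the elongase gene ELO1 (-0.63) was lower.

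The proteasome had the highest median response difference of all lists. Of 34 measured subunit and assembly genes 27 were called higher in Alpha1 and 0 lower, against a background of 10.9% higher, and all 34 differences were positive, with a median of 0.63. In T210A 25 of the 34 fell and 0 rose, with a median response of -0.34. In Alpha1 18 rose and 0 fell, with a median of 0.27, and normal Snf1 gave 0.24. The mean over the 34 genes was 9.87 to 9.91 in Alpha1 and 9.89 to 9.97 in T210A at high glucose. At low glucose it was 10.09, 10.16 and 10.12 in Alpha1 and 9.56, 9.57 and 9.61 in T210A, so the strains were level at high glucose and did not overlap at low glucose. PUP1 (YOR157C), a catalytic core subunit, read 9.96, 10.14 and 10.09 in Alpha1 and 9.31, 9.13 and 9.32 in T210A at low glucose (difference 0.91 ± 0.09, limma adjusted p = 1.25e-05). RPT2 (0.93) and RPT4 (0.86) encode ATPases of the cap that unfolds substrates, and both fell in T210A with overlapping groups in Alpha1. The count of higher members stayed between 24 and 28 with any array left out.

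**Figure D3:**
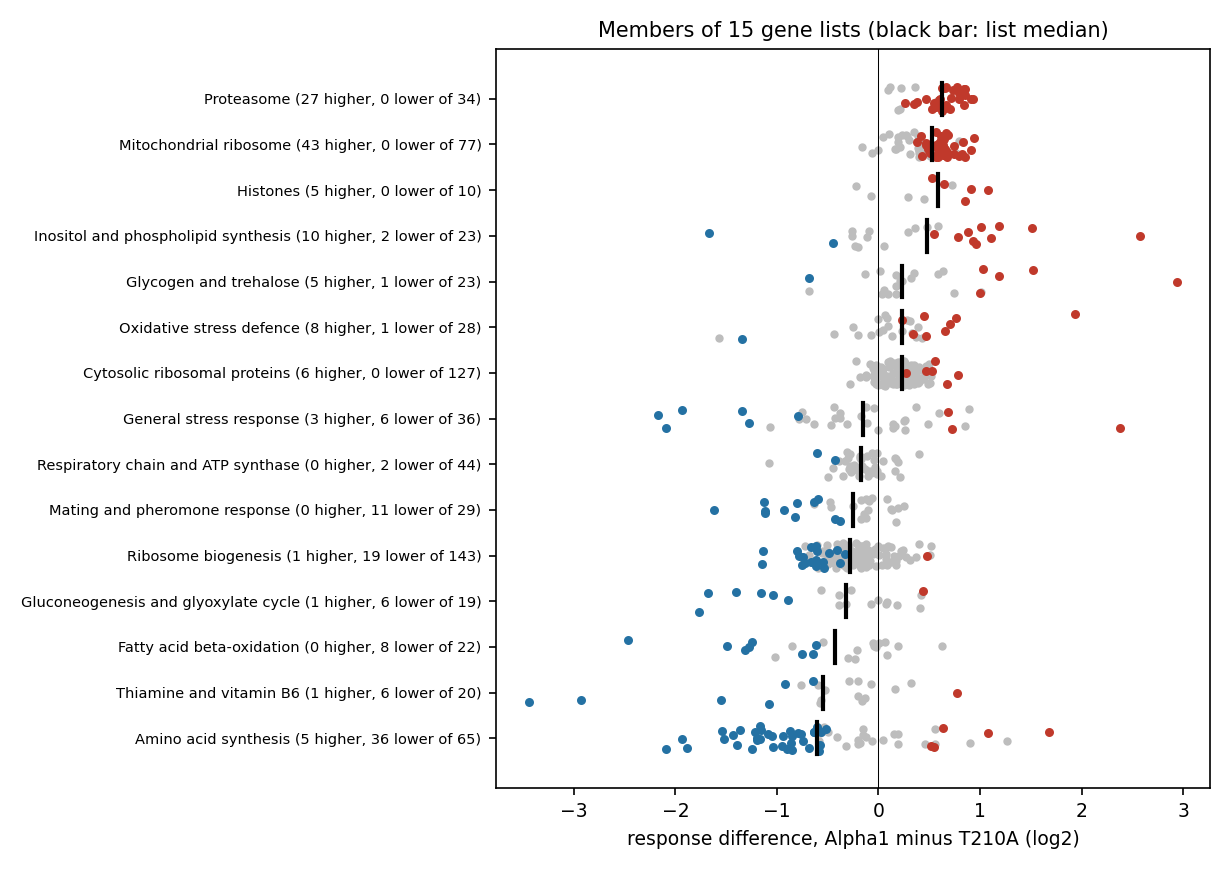
Response differences (Alpha1 minus T210A, log2) of the measured members of 15 gene lists; red points were called higher, blue lower, grey not called, and the black bar is the list median. The proteasome and mitochondrial ribosome points lie mostly to the right of 0 and the amino acid synthesis points mostly to the left, with medians of 0.63, 0.53 and -0.61.

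Mitochondrial ribosome genes had higher responses in Alpha1. Of 77 measured 43 (55.8%) were called higher, against 10.9% of all genes, and 0 lower, with a median difference of 0.53. In Alpha1 76 rose, with a median of 0.92, and in T210A 53 rose, with a median of 0.38, against 1.04 with normal Snf1. MRPL40 (YPL173W), a large-subunit protein, went from 7.27, 7.21 and 7.25 to 8.16, 8.14 and 8.58 in Alpha1 and from 7.33, 7.36 and 7.42 to 7.47, 7.42 and 7.64 in T210A (difference 0.91 ± 0.14, limma adjusted p = 0.000517). The list mean at low glucose was 9.04, 8.86 and 9.22 in Alpha1 and 8.53, 8.45 and 8.59 in T210A, without overlap. The number called was 25 without T210A_high replicate 3, 27 without T210A_low replicate 2 and 27 in the 12-array fit, and it reached 54 with another array left out.

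Of the respiratory chain, all 44 measured genes rose in both strains, with medians of 1.03 in Alpha1 and 1.28 in T210A, and 2 were called lower and 0 higher: COX5A (-0.61) and COX9 (-0.42), both subunits of cytochrome oxidase. The lower share, 4.545%, was below the 9.41% of all genes. The count of lower genes was 11 without Alpha1_low replicate 3 and 4 without Alpha1_high replicate 2, and 2 genes were higher without Alpha1_low replicate 1 or 2. Of 17 genes of the tricarboxylic acid cycle 2 were lower, a share of 11.8% near the 9.41% of all genes. They were IDP1 (-1.06), mitochondrial isocitrate dehydrogenase of the NADP type, and KGD4 (-0.56), a subunit of the ketoglutarate dehydrogenase complex. The KGD4 call was lost in the 12-array limma fit (adjusted p = 0.0826). Here 6 genes were lower without Alpha1_low replicate 3 and 4 without Alpha1_high replicate 1, and 3 were higher without Alpha1_low replicate 2.

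Cytosolic ribosomal protein genes fell in both strains, 122 of 127 in Alpha1 and 123 in T210A. Their median difference was 0.23, and 85.8% of the differences were positive, against 50.4% of all genes. Of the 127, 6 were called higher, among them RPS9A (0.78), or 4.72% against 10.9% of all genes. This count moved with single arrays: it was 30 without Alpha1_low replicate 2 and 14 without Alpha1_low replicate 3, while it was 3 without Alpha1_high replicate 2, 2 without T210A_high replicate 3 or T210A_low replicate 1, and 0 in the 12-array fit. Most of these genes have a near-identical copy that the probes may not separate. The list mean on the 3 Alpha1 arrays at low glucose was 11.78, 11.12 and 11.23, so replicate 1 stood above the others.

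Ribosome biogenesis genes, for processing and assembly factors of the nucleolus, fell in nearly all cases, 142 of 143 in Alpha1 and 139 in T210A. The median response was -1.98 in Alpha1, -1.60 in T210A and -3.22 with normal Snf1, so that both medians were less negative than that of the reference. Of the 143, 19 were called lower in Alpha1 and 1 higher, FPR3 (0.48), with a median difference of -0.28. Called or not, 16.1% of the list had a positive difference, against 50.4% of all genes. The share called lower is 13.3%, near the background of 9.41%, and the share called higher is below that of 10.9%. NOP19 (-1.15) and ESF1 (-1.14) were the largest; NOP19 fell by 0.81 in Alpha1 and rose by 0.34 in T210A. Without Alpha1_low replicate 2 the count of lower genes was 51, and without Alpha1_low replicate 3 there were 4 higher. For subunits and factors of RNA polymerases I and III 2 of 27 were higher and 1 lower (7.41% and 3.70%), shares below those of all genes. The higher count was 0 when any 1 of 6 arrays was left out, Alpha1_high replicate 3, Alpha1_low replicate 2, T210A_high replicates 1 and 3 or T210A_low replicates 1 and 2.

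**Figure D4:**
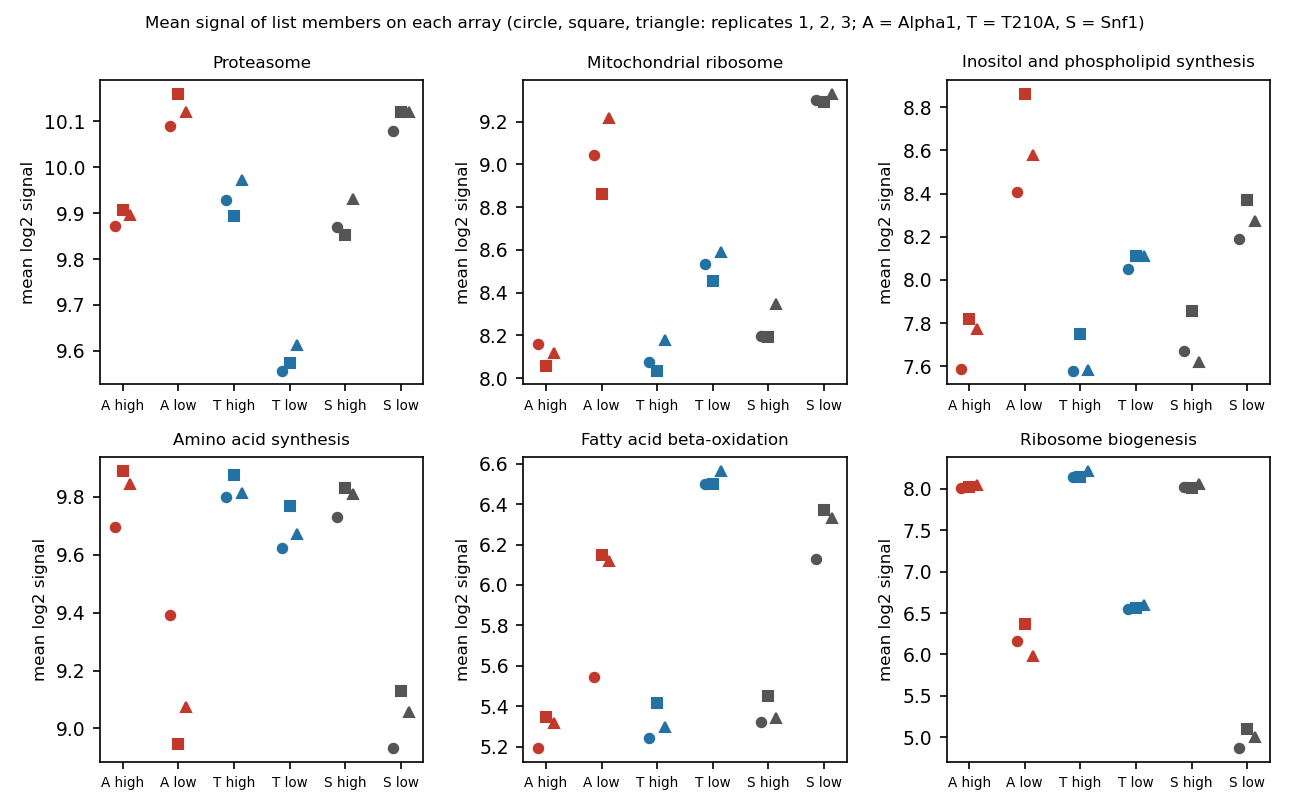
Mean log2 signal over the members of 6 gene lists on every array, with a vertical scale of its own for each panel; circle, square and triangle are replicates 1, 2 and 3 of Alpha1 (A), T210A (T) and normal Snf1 (S). Proteasome and mitochondrial ribosome means at low glucose are higher in Alpha1 than in T210A on every array, and outside the proteasome panel the 3 Alpha1 arrays at low glucose lie farther apart than those of any other group.

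Amino acid synthesis had the lowest median response difference of all lists. Of 65 genes 36 were called lower, against a background of 9.41%, and 5 higher, with a median of -0.61. In Alpha1 48 fell and 4 rose, and in T210A 25 fell and 28 rose. The median response was -0.61 in Alpha1, -0.03 in T210A and -0.88 with normal Snf1. The lower genes include members of the histidine, arginine, tryptophan, lysine, isoleucine and leucine, and aromatic pathways, and many genes of these pathways are known targets of the activator Gcn4. The lysine and leucine pathways were mixed, since LYS9 (1.08), of lysine synthesis, and LEU2 (0.64), of leucine synthesis, were called higher, as were HOM6 (0.55), PRO3 (0.52) and GDH1. The count of lower genes lay between 35 and 42 with any array left out, and that of higher genes was 9 without Alpha1_low replicate 2 and 8 without Alpha1_low replicate 3.

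HIS3 (YOR202W), a histidine synthesis enzyme, went from 10.54, 10.41 and 10.44 to 9.62, 9.18 and 9.76 in Alpha1 and from 10.41, 10.38 and 10.63 to 11.36, 11.37 and 11.50 in T210A. The strains overlapped at high glucose and moved by 0.94 in opposite directions, a difference of -1.88 ± 0.17 (limma adjusted p = 8.03e-06). CPA1 (YOR303W), a subunit of the carbamoyl phosphate synthetase for arginine, fell by 0.59 in Alpha1 and rose by 1.34 in T210A (difference -1.94 ± 0.21, limma adjusted p = 2.89e-05). ARG7 (YMR062C), of ornithine synthesis, read 9.23, 8.86 and 9.48 in Alpha1 and 10.86, 11.14 and 11.05 in T210A at low glucose (difference -2.09 ± 0.23, limma adjusted p = 2.89e-05). Of the 5 higher genes GDH1 (YOR375C), the NADP-dependent glutamate dehydrogenase that assimilates ammonium, had the largest difference and fell in both strains, by 1.27 in Alpha1 and by 2.95 in T210A (difference 1.68 ± 0.37, limma adjusted p = 0.00536). PCL5 (-1.75), a cyclin that promotes degradation of Gcn4, and UGA3 (-1.51), an activator of genes for GABA use, rose in T210A and their responses in Alpha1, 0.27 and -0.10, did not pass the test. PCL5 lies on chromosome VIII.

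SNO1 (YMR095C) and SNZ1 (YMR096W), adjacent genes for vitamin B6 synthesis, fell in Alpha1 and rose in T210A. SNO1 went from 6.57, 6.79 and 7.04 to 4.07, 3.57 and 4.02 in Alpha1 and from 6.94, 7.04 and 7.07 to 7.50, 7.49 and 7.67 in T210A (difference -3.45 ± 0.26, limma adjusted p = 1.43e-06). SNZ1 fell 5.85-fold in Alpha1 and rose 1.30-fold in T210A (difference -2.93 ± 0.22, limma adjusted p = 1.66e-06). Neither strain overlapped the other at low glucose, and normal Snf1 gave -2.85 and -2.43, close to the Alpha1 values. In the thiamine and vitamin B6 list of 20 genes 6 (30%) were lower and 1 (5%) higher, against 9.41% and 10.9% of all genes. Without Alpha1_low replicate 2 the count of lower genes was 11. SNZ1 and SNO1 have relatives of similar sequence elsewhere in the genome.

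The amino acid permeases held the largest difference of all. BAP3 (YDR046C), which takes up branched-chain and other amino acids, fell in Alpha1 from 6.47, 6.40 and 6.19 to 2.57, 4.16 and 2.98 and rose in T210A from 6.83, 6.97 and 6.71 to 9.14, 9.23 and 9.13. At low glucose the strains were 5.93 apart, and the response difference was -5.45 ± 0.41 (limma adjusted p = 1.66e-06). The Alpha1 mean at low glucose was near the floor, and normal Snf1 gave -3.61. GNP1 (-2.37) and DIP5 (-2.22), permeases for glutamine and for dicarboxylic amino acids, fell in both strains and further in Alpha1. PUT4 (1.93), the proline permease, rose by 2.21 in Alpha1, and its response of 0.28 in T210A did not pass the test. Of 22 genes in the permease list 7 were lower and 2 higher, or 31.8% and 9.09% against 9.41% and 10.9% of all genes. The general permease gene GAP1 fell in both strains and was not called (0.76, adjusted p = 0.104), but it was without Alpha1_low replicate 3 (1.00, adjusted p = 0.0188). The list of 33 genes under nitrogen catabolite repression gave 4 higher and 5 lower (12.12% and 15.15%, against 10.9% and 9.41% of all genes). Its lower count was 3 without Alpha1_low replicate 1, T210A_high replicate 1 or T210A_low replicate 3, and its higher count was 7 without Alpha1_low replicate 3.

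Sulfate and methionine genes were called in both directions, 8 higher and 9 lower of 30, or 26.7% and 30.0% against 10.9% and 9.41% of all genes. SUL1 (YBR294W), the sulfate permease, rose in Alpha1 from 9.80, 9.66 and 9.60 to 10.51, 10.22 and 10.36 and fell in T210A from 8.78, 8.85 and 8.59 to 7.48, 7.57 and 7.44 (difference 1.92 ± 0.12, limma adjusted p = 4.46e-07). It was also higher in Alpha1 at high glucose, by 0.95. MHT1 (2.30) and MMP1 (1.41), for S-methylmethionine use and uptake, fell in T210A, and their responses in Alpha1 did not pass the test. STR2 (-1.62) and STR3 (-1.22), of the route between cysteine and homocysteine, and HOM3 (-1.17), aspartate kinase, rose in T210A by 1.88, 1.55 and 1.07, and in Alpha1 only the small response of STR2 (0.25) was called. SSU1 (-2.90), the sulfite exporter, which is not in the list, rose by 3.92 in T210A and by 1.02 in Alpha1. The list counts were 5 higher without Alpha1_high replicate 1, 5 lower without T210A_high replicate 3, and 5 of each without T210A_low replicate 3.

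General stress genes rose in both strains, all 36 of them, with a median of 3.52 in Alpha1, 3.96 in T210A and 3.72 with normal Snf1. Of these 3 were higher and 6 lower, or 8.33% and 16.7% against 10.9% and 9.41% of all genes. The median difference of -0.15 turned positive with array weights and without Alpha1_low replicate 1. The list mean on the Alpha1 arrays at low glucose was 9.01, 9.24 and 10.03, against 10.13, 10.11 and 10.14 in T210A, and 17 genes were lower without Alpha1_low replicate 3 and 7 higher without Alpha1_low replicate 1. HSP30 (YCR021C), a plasma membrane stress protein, went from 4.77, 4.79 and 5.03 to 9.82, 10.09 and 11.37 in Alpha1 and from 5.07, 5.65 and 5.56 to 13.08, 13.03 and 13.15 in T210A (difference -2.09 ± 0.44, limma adjusted p = 0.00443). TMA10 (2.38), a ribosome-associated stress protein, moved the other way, by 7.69 against 5.32, and HSP12, a membrane-stabilising stress protein, was not called (0.15, adjusted p = 0.651). HSP12 read 9.24, 9.01 and 9.23 in Alpha1 and 10.03, 10.19 and 10.12 in T210A at high glucose, a gap of -0.95 between the strains.

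Heat shock, chaperone and endoplasmic reticulum folding genes gave 6 lower and 1 higher of 32. These shares, 18.75% and 3.125%, stand against 9.41% and 10.9% of all genes. The largest differences were those of SSE2 (-1.53), a nucleotide exchange factor, and the aggregate-sorting factors BTN2 (-1.32) and CUR1 (-1.18). The lower count was 10 without Alpha1_low replicate 2, and 3 were higher without Alpha1_low replicate 3. Oxidative defence gave 8 higher and 1 lower of 28, or 28.6% and 3.57% against 10.9% and 9.41% of all genes. Among the higher genes were OYE3 (1.94), an NADPH oxidoreductase, PRX1 (0.77), mitochondrial peroxiredoxin, and YAP1 (0.71), the activator of this response. OYE3 started near the floor, and the count of higher genes was 5 without T210A_high replicate 3 or T210A_low replicate 2, and that of lower genes 3 without Alpha1_low replicate 3.

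Histone and mating genes form short lists. Of 10 histone genes 5 were higher and 0 lower, with a median of 0.58, against background shares of 10.9% and 9.41%. HHO1 (YPL127C), the linker histone, fell in T210A from 8.74, 8.94 and 8.76 to 7.84, 7.82 and 7.86 and read 8.87, 8.80 and 9.03 and then 9.07, 8.85 and 9.11 in Alpha1, with overlap (difference 1.08 ± 0.11, limma adjusted p = 2.7e-05). The histone count was 3 without Alpha1_high replicate 2 or T210A_low replicate 2, and core histone genes occur in near-identical pairs. Of 29 mating and pheromone genes 11 (37.9%) were lower and 0 higher, with medians of 0.03 in Alpha1 and 0.45 in T210A. AGA1 (-1.12) and AGA2 (-1.62) encode the subunits of an agglutinin, and MFA1 (-1.13) a mating pheromone. AGA2 was near the floor in both Alpha1 groups, and 4 of the list were called lower when dim genes were left out.

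Cell wall and flocculation genes gave 7 higher and 2 lower of 43, which is 16.3% and 4.65% against 10.9% and 9.41% of all genes, so the list as a whole stood close to the background. CWP1 (YKL096W), a mannoprotein, rose in Alpha1 from 6.29, 6.15 and 6.55 to 9.02, 10.17 and 9.96 and read 8.18, 8.46 and 8.33 and then 7.98, 7.91 and 7.97 in T210A (difference 3.75 ± 0.30, limma adjusted p = 2.3e-06). At high glucose it was lower in Alpha1 by 1.99, so that the order of the strains reversed between the 2 glucose levels. UTR2 (1.80), a chitin transglycosylase, fell in both strains, and TIP1 (-1.41), a mannoprotein induced by cold, rose in both. The count of lower members was 7 without Alpha1_low replicate 2.

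Of 33 purine and pyrimidine genes 6 were lower and 1 higher, of 33 metal uptake genes 4 were lower and 2 higher, and of 30 ergosterol and oxygen-regulated genes 3 were higher and 2 lower. The metal uptake shares (12.1% lower, 6.06% higher) and the ergosterol shares (6.67% lower, 10% higher) are near the background of 9.41% lower and 10.9% higher. Of the purine and pyrimidine genes 18.2% were lower and 3.03% higher. Single arrays moved some of these counts: 8 metal uptake genes were higher without Alpha1_low replicate 1, 5 ergosterol genes were lower without Alpha1_low replicate 2, and 3 or 4 purine and pyrimidine genes were higher without Alpha1_low replicate 2 or 3. HEM13 (YDR044W), a haem synthesis enzyme known to respond to oxygen, rose by 0.59 in Alpha1 and fell by 1.12 in T210A (difference 1.71 ± 0.16, limma adjusted p = 1.19e-05), and ROX1 (-1.04), the repressor of hypoxic genes, was lower. CTR3 (1.55), a copper transporter, rose in both strains, and the reductase gene FRE7 (-1.89) rose in T210A. In the list of 16 cyclins and related genes, which includes SIC1, WHI5 and SWI5, 4 were higher and 1 lower (25% and 6.25%). CLN3 (1.07), an early G1 cyclin, rose by 0.71 in Alpha1 and fell by 0.36 in T210A. Of 18 genes in the Ras and protein kinase A list 3 were higher and 1 lower (16.7% and 5.56%). The higher ones were RAS1 (0.88), RAS2 (0.51) and MRK1. RAS2 was not called in the 12-array limma fit (adjusted p = 0.0654). MRK1 is of the glycogen synthase kinase 3 family, so the higher share depends on its placement in this list. The lower gene was PDE1 (YGL248W), the low-affinity cyclic AMP phosphodiesterase. PDE1 went from 7.41, 7.27 and 7.39 to 7.80, 8.19 and 8.19 in Alpha1 and from 7.63, 7.70 and 7.72 to 10.26, 10.19 and 10.18 in T210A (difference -1.83 ± 0.12, limma adjusted p = 6.05e-07). Of 34 autophagy genes 28 rose in Alpha1 and 27 in T210A. In the response difference 1 was higher and 1, ATG41 (-2.05), was lower, each a share of 2.94% and below the background. Of 20 phosphate uptake genes 3 (15%) were lower. That last count was 1 without T210A_low replicate 1 or 3, and without Alpha1_low replicate 1 there were 3 phosphate genes and 3 autophagy genes higher.

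Some of the largest negative differences belong to no list. BAG7 (YOR134W), a GTPase-activating protein for Rho1, read 2.26, 2.43 and 2.26 at high and 2.26, 2.93 and 2.86 at low glucose in Alpha1, all near the floor, and went from 2.26, 2.43 and 2.44 to 6.51, 6.81 and 6.54 in T210A (difference -3.88 ± 0.25, limma adjusted p = 4.55e-07). SRL4 (-3.24) and YAL037C-A (-2.65) rose in T210A from near the floor as well. TDA6 (-2.58) and BIO3 (-2.55), the latter for biotin synthesis, rose in T210A by 2.54 and 2.30, and their Alpha1 responses did not pass the test. FMP23 (-2.51) and YNR068C (-3.15) rose in both strains and further in T210A, and YDR222W (-3.06) fell in Alpha1. TEA1 (-2.12), a transcription factor, fell in Alpha1 by 0.97 and rose in T210A by 1.14.

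The response of the strain with normal Snf1, whose arrays enter neither response, was closer to that of Alpha1 than to that of T210A for 970 of the 1106 called genes, or 87.7%, compared with 68.3% of all 5449 genes. The share was 85.3% among genes called higher and 90.5% among those called lower, and 107 of the 115 genes with opposite directions lay closer to Alpha1. For 441 of the called genes the normal response lay between those of the strains, for 636 beyond that of Alpha1 and for 29 beyond that of T210A. By list, all 27 called proteasome genes, 42 of 43 mitochondrial ribosome genes and 40 of 41 amino acid synthesis genes lay closer to Alpha1. The exceptions included the 6 called cytosolic ribosomal protein genes, of which 1 lay closer to Alpha1, and the nitrogen catabolite-repressed genes, with 4 of 9. AAD6 (2.39), an aryl-alcohol dehydrogenase gene, is an example: it rose by 2.99 in Alpha1, while its responses were 0.61 in T210A, which was not called, and -0.11 with normal Snf1. These positions are a description, without a test.

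**Figure D5:**
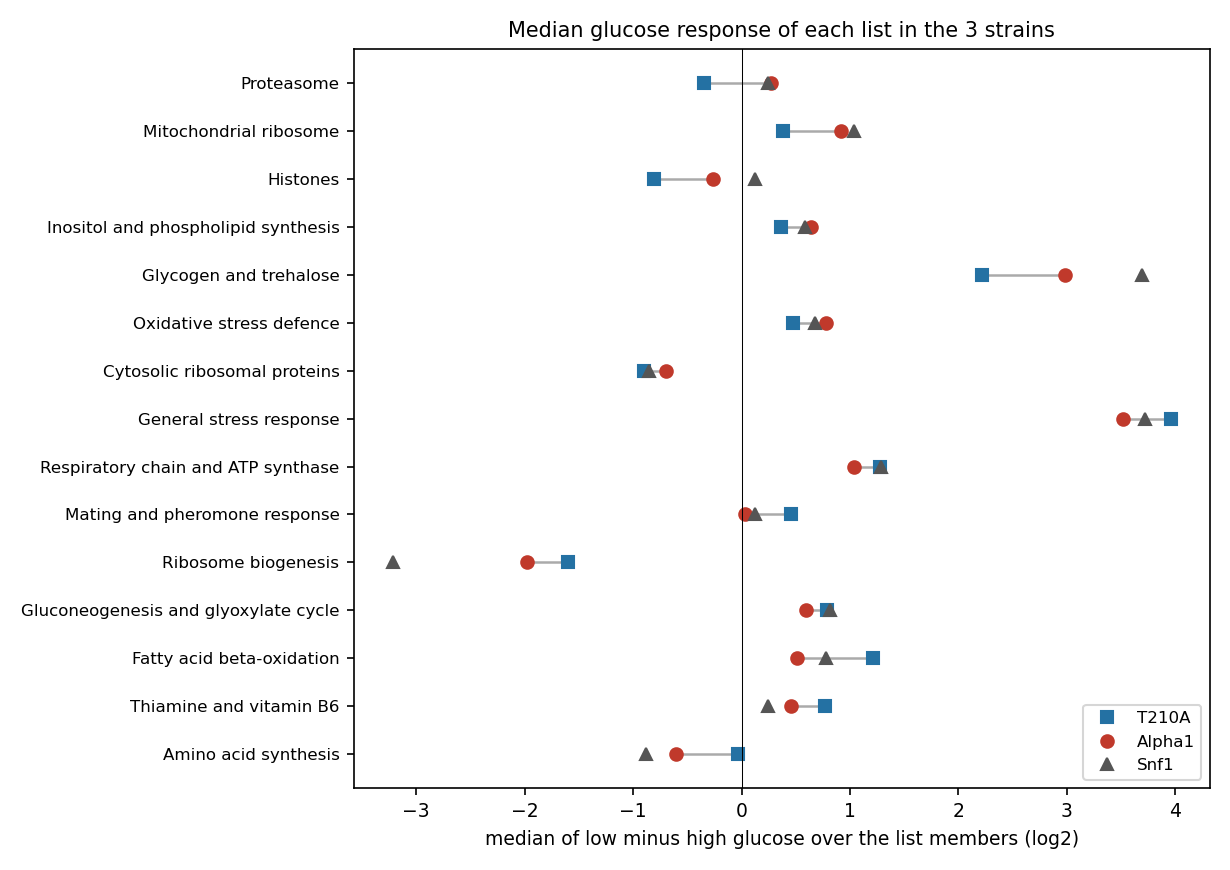
Median change from high to low glucose (log2) over the members of 15 gene lists in T210A (blue squares), Alpha1 (red circles) and normal Snf1 (grey triangles), with grey lines joining T210A and Alpha1. The normal Snf1 median lies near that of Alpha1 for the proteasome (0.24 and 0.27) and the mitochondrial ribosome (1.04 and 0.92), and beyond it for amino acid synthesis (-0.88 and -0.61) and ribosome biogenesis (-3.22 and -1.98).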

How the data were processed

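Total RNA was labelled with biotin and hybridised to Affymetrix yeast arrays, per the labels. Each deposited value is a log2 signal of 1 probe set. The submitters' processing notes name RMA and affy, and no scaling was added. Of 5716 probe sets 5498 named 1 gene and 218 none in the platform annotation, 12 symbols were updated through RefSeq, and the probe set with the highest mean over the 18 arrays stood for each of the 47 genes with several, which left 5449 genes.

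One mean per group was fitted over all 18 arrays with limma 3.58.1 in R 4.3.3 (12 residual and 1.18 prior degrees of freedom). The response difference and both responses were tested with the moderated test, and p-values were adjusted by Benjamini and Hochberg over the 5449 genes of each comparison. Values are log2 ± SE from this fit, with n = 3 arrays per group, and the SE pools the spread of all 6 groups, so it understates that of Alpha1 at low glucose. The adjusted p-values and calls that involve this group use the same pooled spread and carry the same limit. Means under 3.25, which is 1 above the mean lowest signal of the arrays, are called near the floor. The procedure was tested on simulated data in which 200 of 5449 genes changed, and it recovered 72% of changes of 1 and 27.2% of changes of 0.5 in this comparison, with 8.2 false calls on average. The simulated arrays varied independently, with the same spread of a gene in every group. In the data Alpha1 at low glucose was more variable and arrays of the same number mostly deviated together. The simulation therefore cannot give the false-call rate of these data. The number of arrays limits the precision.

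Genes named are the 12 largest called differences in each direction, the 6 largest with opposite called responses, 17 anchor genes and up to 3 called members of each list in each direction, with a few further called members named in passing. The members, lists and anchors were chosen with earlier results of these data known. Alternatives were a robust trend prior, the 12 arrays alone, a block for the replicate number, quantile and median scaling, filters on dim genes, other uses of probe sets, array weights, omission of chromosome VIII, a minimum size, and omission of each of the 12 arrays.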

Additional observations from a re-analysis of the deposited data

Results flagged for a closer look

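The following results were singled out because the glucose response differed between the strains by a test of the difference itself (limma, 3 arrays per group). In all 1106 genes met this test. The 12 largest positive differences were those of YMR206W (4.60), CWP1 (3.75), MRK1 (3.56), REG2 (3.0), SUC2 (2.96), GSY1 (2.94), HXT2 (2.85), RSB1 (2.71), INO1 (2.58), AAD6 (2.39), TMA10 (2.38) and MHT1 (2.30). The 12 largest negative ones were those of BAP3 (-5.45), BAG7 (-3.88), SNO1 (-3.45), SRL4 (-3.24), YNR068C (-3.15), YDR222W (-3.06), SNZ1 (-2.93), SSU1 (-2.90), YAL037C-A (-2.65), TDA6 (-2.58), BIO3 (-2.55) and FMP23 (-2.51). Among genes with opposite called responses YAT2 (-2.47), TEA1 (-2.12) and ARG7 (-2.09) followed BAP3, SNO1 and SNZ1.

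In data that the gene comparisons did not use, 38 of the 218 probe sets without a gene name were called in the response difference, 15 higher and 23 lower. The same fit called 1138 of all 5716 probe sets, 607 higher and 531 lower, which is a similar share. Single arrays were not tested as outliers, since each group has 3.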

How the results depend on the processing

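All 1106 calls rest on 3 arrays per group, and Alpha1 at low glucose was the most variable group, with array weights of 0.16 to 0.52. With a minimum size of 1 added to the threshold, 298 genes were called, 107 higher and 191 lower, and the Alpha1 and T210A responses gave 1292 and 1525 genes. The 12 arrays alone called 805 genes (412 higher, 393 lower), array weights 1321 and quantile normalization 1320. The balance of the 2 directions was not stable: 593 higher and 513 lower became 647 and 674 with array weights, 650 and 759 without Alpha1_low replicate 2 and 473 and 480 without T210A_low replicate 2. The Alpha1 response turned from mostly rising to mostly falling with quantile normalization (1633 rising, 2078 falling) and with arrays centred on their medians (1730 and 1840), as did the T210A response (1749 and 2196, 1850 and 2027). Leaving out 1 array gave 908 (without T210A_low replicate 1) to 1409 (without Alpha1_low replicate 2) called genes. The replicate number as a block called 1470 genes (791 higher, 679 lower); arrays with the same number mostly deviated together, with r above 0.1 in 38 of 45 pairs of groups and numbers (median 0.30, lowest -0.24), and 16 of the 18 arrays correlated best with their own number. This is a hint from the data, not the design: not every pair passed 0.1 and no label states a pairing, so the main test has no block. No named called gene changed sign in a setting that tested it, whereas the median of 17 of 39 lists did in some setting, and each of those medians was within 0.20 of 0. Of the 159 named called genes 119 kept their call and direction under every setting that tested them and 40 lost the call in some setting, 32 of them with the 12 arrays alone; the cause was not tested. Genes near the floor have uncertain folds.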
